A study of Drosophila melanogaster with 2 samples.

Results

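The genes described here encode Hsp83, members of the Hsp70 family, the chaperones and co-chaperones that work with them, and the heat-shock transcription factor. They were given by name, as a list of 10 genes, with no threshold on their values but with earlier results of these data known. Of these, 9 were matched to an identifier in the files, among 12083 genes listed in either library. Hsc70-4, the main constitutive cytosolic Hsp70, could not be matched through the identifier tables used here, and no value is given for it.

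RNA from whole adult heads of Drosophila melanogaster w1118, a white-eyed laboratory strain, was compared after 6 days on a standard control diet or on that diet with sucralose added. Sucralose, a non-nutritive sweetener made by chlorinating sucrose, provides a sweet taste with next to no calories. The flies were 4 to 7 days old at the start and 10 to 14 days old at collection, per the labels. With 1 RNA library per diet, replicate spread is unknown, the diets cannot be tested, and every difference compares these 2 libraries. The labels give neither the sex of the flies nor the number of heads per library.

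Chaperones of the Hsp90 and Hsp70 families bind unfolded or unstable proteins and use cycles of ATP hydrolysis to fold, hold or release them. J proteins such as DnaJ-1 deliver clients to Hsp70 and start its ATP hydrolysis, and exchange factors such as the BAG protein Stv make it release the nucleotide. Hop bridges Hsp70 and Hsp90, Cdc37 brings kinases to Hsp90, and the mitochondrial Hsp70 and Hsp60 fold imported proteins. Hsf is the transcription factor that switches on Hsp83, Hsp68, DnaJ-1 and stv under heat stress, although Hsp83 is also abundant without stress. Hsp90 clients include steroid receptors and signalling kinases.

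Uniquely assigned reads numbered 10.3 M in the control library, over 11521 genes, and 10.4 M in the sucralose library, over 11588. Levels are given as deposited RPKM, reads scaled by gene length and by library total, with an exact Poisson 95% interval. Folds are ratios of counts scaled by the trimmed mean of M-values (TMM), with an exact binomial (Clopper-Pearson) 95% interval. Both intervals cover counting error only. Comparisons were limited to genes whose reads in the 2 libraries summed to 50 or more. A difference of at least 1.5-fold on log2(CPM + 0.5), where CPM is the scaled count per 1000000 reads, was called, and a log2 difference of 0.32 served as a milder mark.

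Among the 9 measured genes, 2 were at least 1.5-fold lower in the sucralose library, Hsp83 and DnaJ-1. None was at least 1.5-fold higher. Over all 8889 genes compared, 4.12% were lower and 1.96% higher by as much. Past the milder mark, Hop was also lower and Hsp68 was higher, against 11.4% lower and 8.44% higher over all genes. The other 5 lay within it, with stv, Hsf and Cdc37 above 0 and the mitochondrial pair Hsp60A and Hsc70-5 below 0. In all, 4 of the 9 were above 0 and 5 below, against 49.6% and 50.4% of all genes. All 9 had more than 50 reads. The median log2 difference of the 9 was -0.16, beside -0.0016 over all genes compared.

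Hsp83, the only cytosolic Hsp90 of the fly, had 13019 control and 7654 sucralose reads. Its level was 428.3 RPKM (421.0 to 435.7) on the control diet and 247.9 RPKM (242.4 to 253.6) on the sucralose diet. The sucralose library was thus the lower one, and the intervals were far apart. The fold was 1.73-fold lower (1.69 to 1.78), with a log2 difference of -0.79. Only 187 of the 8889 genes (2.10%) had a lower log2 difference. By RPKM, Hsp83 stood at position 176 of the control library and position 277 of the sucralose library, counted from the highest. In heads, less RNA per cell and fewer cells of a type that expresses the gene strongly cannot be told apart.

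The Hsp90 co-chaperones did not share the size of this difference. Hop, which links Hsp70 to Hsp90 and is named Stip1 in the current annotation, had 795 control and 627 sucralose reads, with levels of 38.3 and 29.7 RPKM. It was 1.29-fold lower (1.16 to 1.44). Cdc37, the adaptor for kinase clients, had 563 and 599 reads, with levels of 34.0 and 35.7 RPKM. Its fold of 1.04 (0.929 to 1.17) had an interval that includes no difference, and 23.2% of its exon bases are shared with an antisense gene in the BDGP6.54 annotation. For no other measured member was more than 0.583% of the exon bases shared with another gene.

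The Hsp83 level was 11.2 times that of Hop on the control diet and 8.34 times on the sucralose diet, so the ratio was 1.34-fold lower (1.20 to 1.497). Against Cdc37 it was 12.6 times on the control diet and 6.95 times on the sucralose diet, 1.81-fold lower (1.60 to 2.04). Hop and Cdc37 changed places in the order of levels. Their intervals overlapped in the control library and did not in the sucralose library, where Hsf lay between them and overlapped both. These and the other ratios between genes were chosen after their values were seen.

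**Figure D1:**
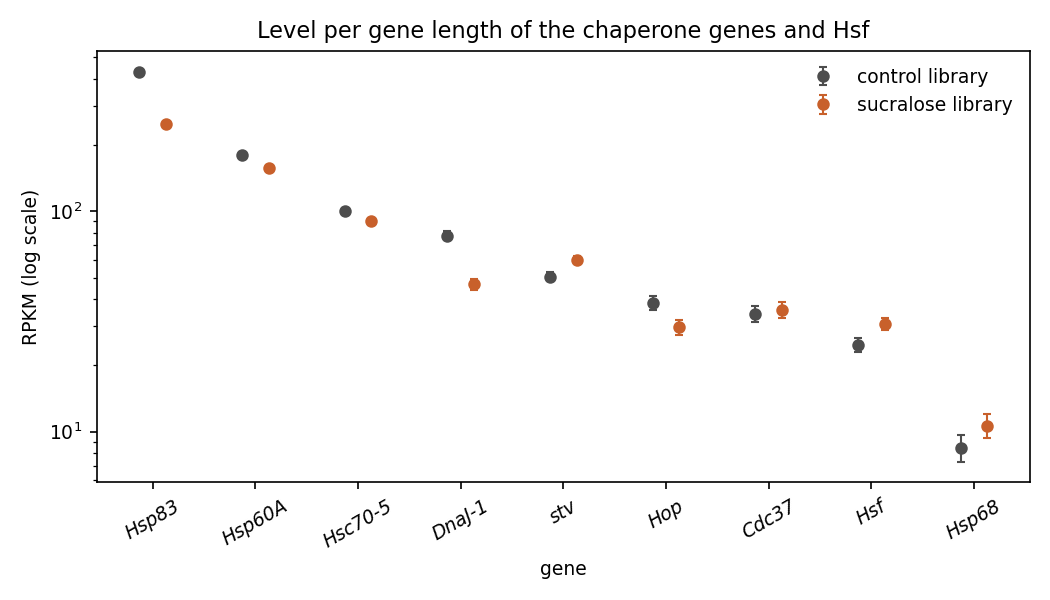
Deposited RPKM of the 9 measured genes on a log axis, in order of the control level, with the control library in grey and the sucralose library in orange and bars for the exact Poisson 95% interval of the counts (often smaller than the point). Hsp83 had the highest level in both libraries (428.3 and 247.9 RPKM) and Hsp68 the lowest (8.39 and 10.6 RPKM), and DnaJ-1 and stv changed places.

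Hsp68, a strictly heat-inducible Hsp70 in the textbook description, was the rarest of the 9. It had 192 control and 247 sucralose reads, with levels of 8.39 RPKM (7.25 to 9.67) and 10.6 RPKM (9.35 to 12.0). The sucralose library was the higher one, although the Poisson intervals of the levels overlapped. The fold was 1.26-fold higher (1.04 to 1.53). The ratio of Hsp83 to Hsp68 was 51.0 on the control diet and 23.3 on the sucralose diet, 2.19-fold lower (1.80 to 2.66). Hsp83 and Hsp68, both heat-inducible, were thus displaced in opposite directions.

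DnaJ-1, a J protein that works with cytosolic Hsp70, had 1717 control reads and 1050 sucralose reads. Its level was 77.4 RPKM (73.8 to 81.1) on the control diet and 46.6 RPKM (43.8 to 49.5) with sucralose. It was 1.67-fold lower (1.54 to 1.80), and 228 of 8889 genes (2.56%) had a lower log2 difference. This was close to the fold of Hsp83. The ratio of Hsp83 to DnaJ-1 was 5.54 on the control diet and 5.32 with sucralose, and the interval of its change, 0.957 to 1.13, includes no change.

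The exchange factor gene stv (starvin), which in flies is known for muscle maintenance and cold recovery, lay on the other side of 0. It had 1742 control and 2102 sucralose reads, with levels of 50.5 RPKM (48.2 to 53.0) and 60.04 RPKM (57.5 to 62.7). The fold was 1.18-fold higher (1.11 to 1.26), a log2 difference of 0.24 and inside the milder mark. DnaJ-1 and stv act on the same Hsp70 cycle, and their order of level was exchanged. DnaJ-1 stood at 1.53 times the level of stv on the control diet and at 0.776 times with sucralose, a 1.97-fold lower ratio (1.78 to 2.18).

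Hsf, whose product drives the heat-shock genes, had 736 control and 932 sucralose reads. Its level was 24.8 RPKM (23.01 to 26.6) on the control diet and 30.9 RPKM (28.9 to 32.9) with sucralose, and the fold was 1.24-fold higher (1.13 to 1.37). Of the 4 heat-inducible genes named as Hsf targets above, Hsp83 and DnaJ-1 were lower while Hsp68 and stv were above 0. The mRNA level of Hsf says nothing of its activity, which is set mainly on the protein.

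Both mitochondrial chaperones were slightly lower. Hsp60A, the matrix chaperonin, had 4366 and 3846 reads, with levels of 180.4 and 156.5 RPKM, and was 1.16-fold lower (1.11 to 1.21). Hsc70-5, the mitochondrial Hsp70 of protein import, had 3006 and 2739 reads, with levels of 100.2 and 89.9 RPKM, and was 1.12-fold lower (1.06 to 1.18). The level of Hsp60A was 1.80 times that of Hsc70-5 on the control diet and 1.74 times with sucralose, and the interval of this change, 0.966 to 1.11, includes no change. Neither gene reached the milder mark, and 19.1% and 24.3% of all genes compared had a lower log2 difference than Hsp60A and Hsc70-5.

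**Figure D2:**
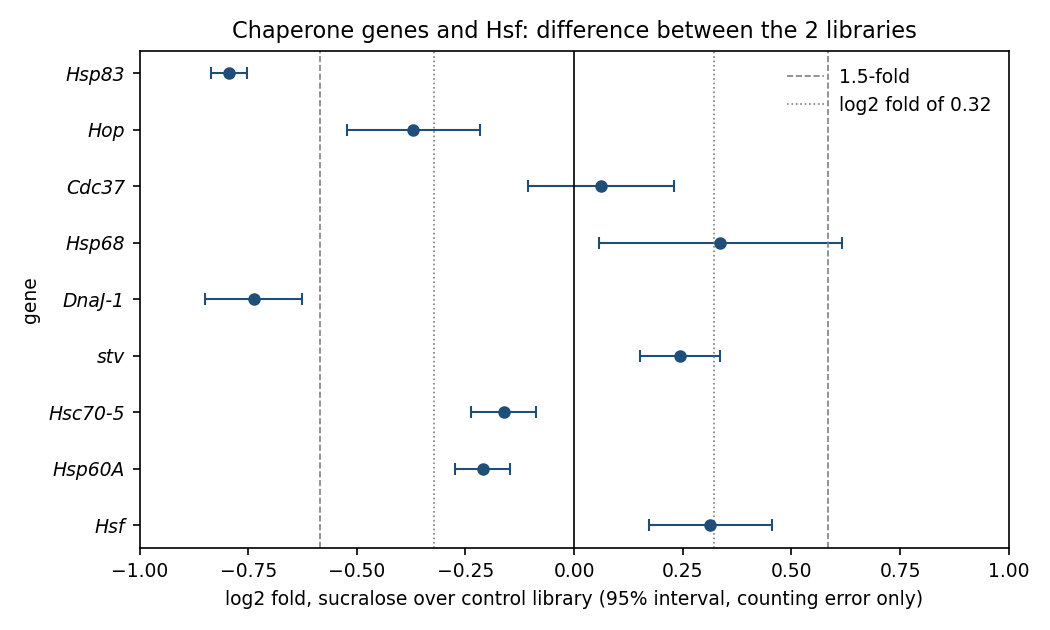
Log2 fold of scaled counts, sucralose over control library, for the 9 measured genes ordered by role, with exact binomial 95% intervals for counting error only and lines at 1.5-fold and at a log2 fold of 0.32 either way. Hsp83 (1.73-fold lower) and DnaJ-1 (1.67-fold lower) lie beyond 1.5-fold with their whole intervals, and the interval of Cdc37 is the only one that includes 0.

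The reads of the 9 genes summed to 26136 on the control diet (0.255% of its library) and 19796 on the sucralose diet (0.190%). The sum was 1.35-fold lower (1.32 to 1.37). Hsp83 alone made up 49.8% of these reads on the control diet and 38.7% with sucralose. Without Hsp83 the sum was 1.10-fold lower (1.07 to 1.13), and without Hsp83 and DnaJ-1 it was 1.05-fold lower (1.02 to 1.08). Most of the difference in summed reads of these 9 thus lay in Hsp83. Hsc70-4, known as an abundant gene in most fly tissues, is missing from the sum and may hold as many reads as these 9 together. Neither the sum, nor its fold, nor the share of Hsp83 thus stands for the whole list of 10.

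Besides Hsp83, 275 genes had at least 200 reads and a control RPKM between 0.5 and 2 times that of Hsp83. With Hsp83 itself counted, 16 were at least 1.5-fold lower, against 366 of all 8889 genes compared (4.12%). The 3 with the log2 difference nearest to that of Hsp83 (-0.79) were the odorant-binding protein genes Obp83a (-0.77), Obp49a (-0.82) and Obp28a (-0.77). Odorant-binding proteins are secreted into the fluid around olfactory and taste neurons. With 2 libraries this likeness is a single difference and not a pattern over conditions.

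**Figure D3:**
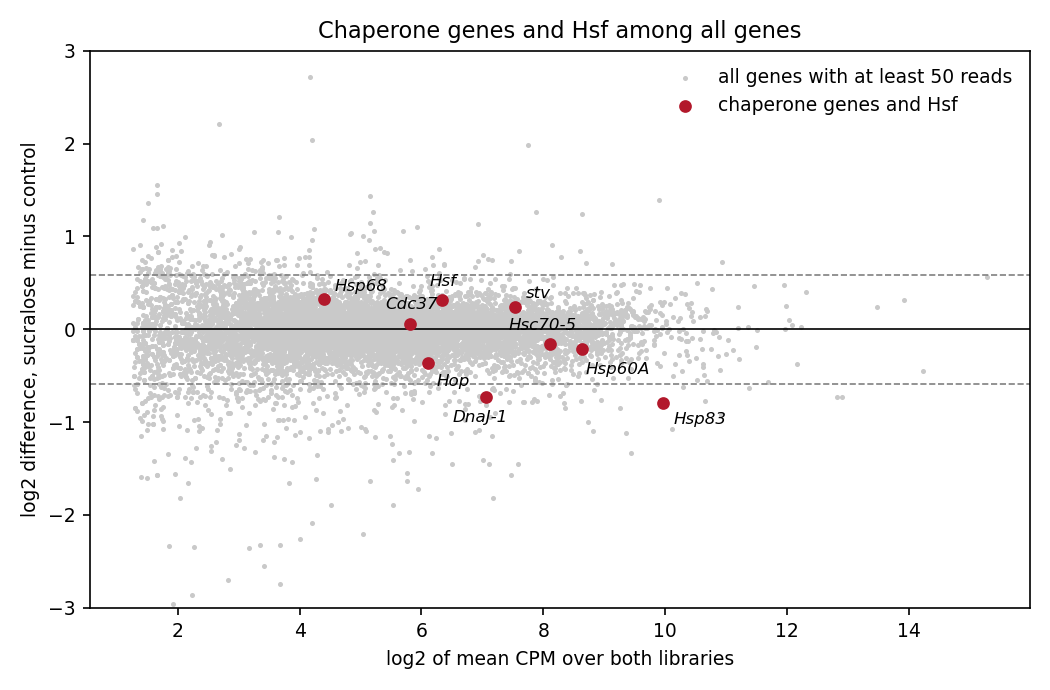
Each grey point is 1 of the 8889 genes with at least 50 summed reads, by log2 of its mean CPM and its log2 difference (sucralose minus control), with dashed lines at 1.5-fold. The 9 genes are in red, 20 grey genes lie outside the axis, and Hsp83 and DnaJ-1 stand below the lower dashed line.

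Most other genes of the chaperone systems lay within 1.5-fold, as did 8349 of the 8889 genes compared. Of 62 listed genes outside the 9, 54 were matched and 43 had at least 50 reads. Of these 43, 30 were below 0 and 13 above, with a median log2 difference of -0.10, and 1 was at least 1.5-fold higher and 1 at least 1.5-fold lower, both small heat-shock genes. Over all genes compared, 50.4% were below 0, 1.96% were at least 1.5-fold higher and 4.12% at least 1.5-fold lower. Past the milder mark, 7 of the 43 were lower and 1 was higher, against 11.4% lower and 8.44% higher over all genes.

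Among the other Hsp90 and Hsp70 proteins, the members of the endoplasmic reticulum stood lowest. The Hsp90 of that compartment, Gp93, was 1.41-fold lower (1.32 to 1.501), with levels of 73.7 and 52.6 RPKM, and the mitochondrial Hsp90 Trap1 was 1.15-fold lower (1.04 to 1.27). Hsc70-3, the Hsp70 of the endoplasmic reticulum (BiP), had 5646 and 4421 reads and had a fold of 0.768 (0.738 to 0.799). Hsc70-2 had 41 and 45 reads and a fold of 1.08 (0.689 to 1.69). The 5 matched heat-inducible Hsp70 genes, Hsp70Ab, Hsp70Ba, Hsp70Bb, Hsp70Bbb and Hsp70Bc, had at most 6 reads each in either library. They are near-identical copies, and counting unique reads may have lost most of theirs.

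None of the 7 other Hsp90 co-chaperone genes over the floor passed the milder mark, and 7127 of the 8889 genes compared also lay inside it. The list median was -0.12, from STUB1 (CHIP), the ubiquitin ligase that binds Hsp70 and Hsp90, at -0.23 to Sgt at 0.14. The one with the most summed reads, p23, which stabilises the closed form of Hsp90, had 1289 and 1211 reads and was 1.08-fold lower (1.002 to 1.17). The median of 13 other J protein genes was -0.08. Of these, 1 was lower past the milder mark and none higher, against 11.4% and 8.44% of all genes. That gene was P58IPK of the endoplasmic reticulum, 1.26-fold lower (1.13 to 1.41), while Droj2, with the most summed reads, was 1.15-fold lower (1.11 to 1.20) and Rme-8, which acts in endosomes, was 1.17-fold higher (1.08 to 1.27). DnaJ-1 thus lay lower than each of these 13.

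The 4 exchange factor genes besides stv stayed inside the milder mark, as did most genes compared, and their median was -0.07. The one with the most summed reads was the Hsp110 gene, listed here as Hsc70Cb, at 1.18-fold lower (1.11 to 1.26), and CG10973 was the highest at 1.02-fold (0.815 to 1.27). The mitochondrial Hsp10 homologue CG11267, the lid of the Hsp60 chamber, had 526 and 466 reads and was 1.15-fold lower (1.01 to 1.31), next to Hsp60A at 1.16-fold lower. The other Hsp60 and Hsp10 genes, 4 in number, had too few reads to compare.

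The CCT genes, which encode the cytosolic chaperonin that folds actin and tubulin, were nearly level. All 7 matched CCT genes stayed inside the milder mark, as did 7127 of the 8889 genes compared. Their median was 0.01, from CCT6 at -0.06 to CCT5 at 0.16. CCT2 had the most summed reads, with 849 and 872. Their summed fold was 1.02 (0.979 to 1.06). The 9 matched genes of mitochondrial import and proteases also stayed inside it, and their median was -0.05, from the import pore gene Tom40 at -0.27 to the protease gene ClpP at 0.23. The most summed reads belonged to the ATPase gene ClpX, with 1608 and 1655.

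Small heat-shock genes, which are also heat-inducible, lay mostly below 0, with 5 below and only Hsp26 above. Of 6 over the floor, 4 were lower and 1 higher past the milder mark, against 11.4% and 8.44% of all genes. The list median was -0.38. The count of 4 became 2 with a pseudocount of 5 CPM, and also at a floor of 200 reads. It includes Hsp27, whose fold of 0.717 (0.459 to 1.11) had an interval that includes no difference. It also includes Hsp67Ba, with 75.9% of its exon bases shared with an antisense gene. The lowest was Hsp67Bc with 89 and 40 reads, 2.27-fold lower (1.55 to 3.38) and so further from 0 than Hsp83. The highest was Hsp26 with 69 and 109 reads, 1.55-fold higher (1.14 to 2.13), and l(2)efl had the most reads, 489 and 390. Neither Hsp67Bc nor Hsp26 reaches 200 summed reads.

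**Figure D4:**
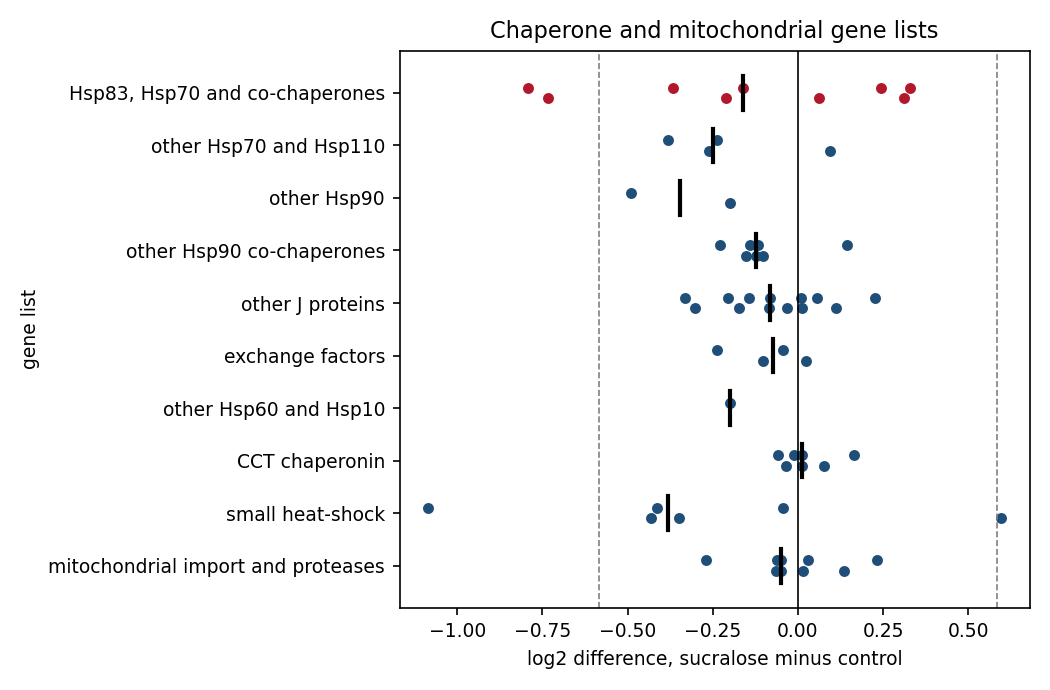
Each point is the log2 difference (sucralose minus control) of 1 gene with at least 50 summed reads, by list, with a black bar at each list's median and dashed lines at 1.5-fold. Hsp83 and DnaJ-1 (red, left) lie outside the range of the J protein, co-chaperone and CCT lists, and only the small heat-shock list reaches beyond 1.5-fold besides them.

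Between the same libraries, marker genes of several cell types and tissues also differed, and their part in the chaperone differences was not tested. For glia, 5 of 9 markers were lower by 1.5-fold or more and none was higher, against 4.12% and 1.96% of all genes. Those lower were alrm, Gat, Gs2, Inx2 and Eaat1. The others, repo (log2 difference -0.06), moody (-0.13), loco (0.03) and wrapper (0.11), stayed within 1.5-fold. The summed level of the 9 was 2868 CPM on the control diet and 1839 with sucralose. Of 8 muscle markers over the floor, 6 were at least 1.5-fold lower, with sums of 4280 and 3025 CPM. The gut genes over the floor, 10 in number, were each at least 1.5-fold lower, with sums of 353 and 13.8 CPM, and Jon99Cii and LysC had 0 reads in the sucralose library. The 10 photoreceptor markers, which attest the labelled tissue, were all above 0, 2 of them by at least 1.5-fold, with sums of 46551 and 64487 CPM. Of these sums ninaE alone held 32246 and 47670 CPM, and trp was nearly level, with a log2 difference of 0.004. None of 8 neuronal markers reached 1.5-fold, with sums of 7735 and 7039 CPM. Of these 8, 7 were below 0, and the median log2 difference was -0.16. Of 5 fat body markers over the floor, 3 were at least 1.5-fold lower. Fbp2, under the floor, had 0 reads in the control library and only 3 in the sucralose library. Of the fat body sums of 5058 and 4987 CPM, apolpp alone held 4757 and 4833 CPM. Of 5 hemocyte markers, 1 was at least 1.5-fold higher and 1 lower (507.2 and 457.0 CPM). Some markers counted beyond 1.5-fold share most of their exon bases with an antisense gene. These were the photoreceptor gene ninaA (100%), the fat body gene Lsp2 (84.6%) and the muscle gene fln (61.6%).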

How the data were processed

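The authors deposited 1 table per library, listing genes with at least 1 read by FlyBase identifier. Its counts are unique reads per gene, per the file headers, raw and summing to the total stated there. The deposited RPKM values differed from those computed again from the counts, lengths and totals by a relative 4.67e-08 at most. Each table also gives, per the file headers, the coverage of a gene by reads in percent. RNA was extracted with Trizol and made into Illumina libraries, per the labels' protocols. For aligner, genome build, annotation and strandedness, the sources used here give nothing, so reads of overlapping genes may be mixed.

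The members and lists were chosen with earlier results of these data known. Symbols came from a table of gene identifiers, with case kept so that Hop was not taken for hopscotch, and 496 of 12083 identifiers (6.07% and 6.12% of reads) had none. TMM factors, 0.998 and 1.002, came from edgeR 4.0.16 in R 4.3.3. Python 3.11.15, pandas 2.3.3, numpy 2.4.6, SciPy 1.17.1 and matplotlib 3.10.9 did the rest. Intervals are at the 95% level, and since no molecular identifiers are named, PCR copies may be counted as separate reads, which the intervals do not cover. Of each other list, the gene with the most summed reads, the highest and lowest genes over the floor and those beyond 1.5-fold were to be named, and others named were picked after their values were seen. The steps were tested on simulated counts with planted changes and counting error only. Spread between libraries was not part of that simulation. Exon overlap was computed from the BDGP6.54 annotation, and no coordinates are printed. Alternatives were other scalings, pseudocounts, filters and the ratio of deposited RPKM.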

Additional observations from a re-analysis of the deposited data

How the results depend on the processing

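The log2 differences of the 9 genes were recomputed with total-count, median-centred and upper-quartile scaling, pseudocounts of 0.1 and 5 CPM and the ratio of deposited RPKM. In these 54 values no gene changed sign or its side of the 1.5-fold mark, and the largest move was 0.06 on the log2 scale. The counts of 2 genes at least 1.5-fold lower and 0 higher also held without a filter and at a floor of 200 reads. The count higher past the milder mark (a log2 difference of 0.32), 1 with Hsp68, was 2 with median centring, which adds Hsf, and 0 with a pseudocount of 5 CPM. The summed fold of 0.743 became 0.908 without Hsp83. Leaving out Hsc70-4 was not run, since it has no value.

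Over all genes, 174 were at least 1.5-fold higher and 366 lower. These counts became 61 and 206 when the pseudocount was 5 CPM, 459 and 695 unfiltered, and 84 and 216 at a floor of 200 reads. At that floor no small heat-shock gene was beyond 1.5-fold. No paired analysis was possible because each diet has 1 library, and for the same reason no replicate was left out. Depth limits genes with few reads: the fold interval of Hsp68 ran from 1.04 to 1.53 and that of Hsc70-2 from 0.689 to 1.69.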
